A study of Mus musculus with 4 samples.

Results

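The ATF4 response is the transcription programme with which cells answer a shortage of amino acids and other stresses, and 40 of its genes were followed here in chondrocytes from mice with a conditional Tiki2 knockout. The 40 were taken by gene symbol from a list of known ATF4 regulators and targets, and all 40 were among the 25239 gene symbols counted and among the 15522 genes tested. They were sorted by role into 7 regulators, 11 synthesis enzymes, 9 amino acid transporters, 9 tRNA ligases and 4 other targets. RNA-seq of poly(A) RNA was done in primary mouse chondrocytes, the cells that build cartilage matrix. The 2 control libraries came from Tiki2 fl/fl mice. The 2 conditional knockout (cKO) libraries came from Tiki2 fl/fl mice that also carry Col2a1-Cre/ERT, a tamoxifen-inducible Cre under Col2a1 control, which acts in cells that express that collagen gene. All 4 libraries came from cells given 4-hydroxytamoxifen. The Cre itself and the Tiki2 deletion therefore cannot be told apart, and the labels give no age or sex.

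ATF4 is a leucine zipper transcription factor that is made mainly through control of translation. When kinases phosphorylate the initiation factor eIF2, most protein synthesis slows while translation of Atf4 mRNA increases. ATF4, often paired with a C/EBP family protein, then raises genes that import amino acids, make serine, glycine, proline and asparagine, and charge tRNAs. Chondrocytes secrete large amounts of collagen, which is rich in glycine and proline, and ATF4 is known to be needed for normal growth plate cartilage. Levels of mRNA do not measure ATF4 protein or eIF2 phosphorylation.

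The libraries held 66750140 to 78873054 counts. The floxed gene, Trabd2b (Tiki2), was at 436 and 415 CPM in controls and at 292 and 363 CPM in cKO replicates 1 and 2, a log2 fold change of -0.38 ± 0.11 (SE; edgeR adjusted p = 0.15). These counts cover the whole gene and do not measure the deleted part, so loss of Tiki2 is given by the labels alone. Control replicate 1 stood apart in sex-linked genes, with 112185 counts of Xist and 0 of Ddx3y, against 36 to 171 and 11073 to 12085 in the other 3 libraries. Of the 40 genes, 1 (Slc7a3) lies on the X chromosome. All 7 chondrocyte markers, among them Col2a1 and Acan, were detected in every library. Their summed level was 20825 and 24634 CPM (counts divided by the library size and put on a common scale; marker sums use the plain library size, gene values the TMM-scaled one) in controls, and 11894 and 8657 CPM in cKO replicates 1 and 2. The labels do not say whether replicates are separate animals or cultures, so every p-value reflects spread among these 4 libraries alone, and that spread may be technical.

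The promoters are shown because ATF4 targets are known to share a binding element. The composite C/EBP-ATF element, through which ATF4 is known to bind, was searched as TGATGNAA on both strands, from 250 bases before to 50 bases after each RefSeq transcription start (build GRCm38.p6). A window was found for 34 of the 40 genes, the others being Cth, Slc7a3, Slc7a5, Slc1a5, Nars and Wars. The element was present in 12 of the 34 (35.3%), against 2.86% of the 12086 tested genes with a window. By role it was found in 4 of 7 tRNA ligases, 2 of 4 other targets, 2 of 6 transporters, 2 of 7 regulators and 2 of 10 synthesis enzymes. The 40 genes were listed as known ATF4 genes, so this share describes the list. In 8 of the 12 genes a match lay wholly before the start, and stretches are printed for Slc7a11, Pycr1, Asns, Nupr1, Gars, Chac1 and Vldlr, 5′ to 3′ on the strand of the gene, with the element in capitals. TTNCATCA is the same element read on the opposite strand.
Slc7a11, chr3:50443637-50443695, minus strand: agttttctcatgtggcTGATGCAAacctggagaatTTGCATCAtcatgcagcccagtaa
Pycr1, chr11:120643818-120643877, minus strand: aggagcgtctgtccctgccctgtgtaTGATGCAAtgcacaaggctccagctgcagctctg
Asns, chr6:7693214-7693243, minus strand: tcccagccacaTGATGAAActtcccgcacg
Nupr1, chr7:126625562-126625591, minus strand: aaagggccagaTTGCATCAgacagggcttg
Gars, chr6:55037945-55038000, plus strand: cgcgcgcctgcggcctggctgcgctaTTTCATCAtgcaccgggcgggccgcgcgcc
Chac1, chr2:119351023-119351082, plus strand: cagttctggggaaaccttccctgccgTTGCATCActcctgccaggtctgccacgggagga
Vldlr, chr19:27216809-27216838, plus strand: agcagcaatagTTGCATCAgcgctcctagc
Slc7a11 was the only one of the 34 searched with 2 matches before the start, 1 on each strand, the first beginning 66 bases upstream. In Trib3, Iars and Yars the match lay after the start, and in Slc1a4 it spanned the start. The printed stretches of Asns, Nupr1 and Vldlr overlap annotated exons. The one of Vldlr lies before the second of its 2 RefSeq starts, and the window of the first held no match. The median log2 fold change was -0.35 in the 12 genes with it and -0.39 in the 22 without it. A match is a run of letters, and no binding was measured.

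All 40 genes had a log2 fold change below 0 in cKO, where 49.6% of all tested genes did. The median was -0.39, against 0.00 over all genes tested. The 40 were chosen with earlier results of these data known, so the shared direction and the median describe them and test nothing. Of the 40, 2 fell past the threshold, the cystine importer Slc7a11 and the glutamine importer Slc1a5, and none rose (edgeR quasi-likelihood test, p-values adjusted over all genes by Benjamini-Hochberg, threshold 0.05). The background for such calls was 0.908% of genes lower and 0.393% higher. An unadjusted edgeR p under 0.05 was reached by 27 of the 40, all lower, against a background of 8.88% lower and 8.36% higher. In 34 of the 40 both cKO libraries lay below both controls, as did 24.9% of all tested genes. DESeq2 called 17 lower (background 4.14%) and limma-voom 5 (1.46%). Neither called any higher, where the backgrounds were 3.34% and 0.683%. When libraries were scaled by size alone, without TMM, the same 2 genes were called (background 0.792% lower and 0.747% higher) and all 40 stayed below 0, at a median of -0.33 against 0.07 over all genes.

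**Figure D1:**
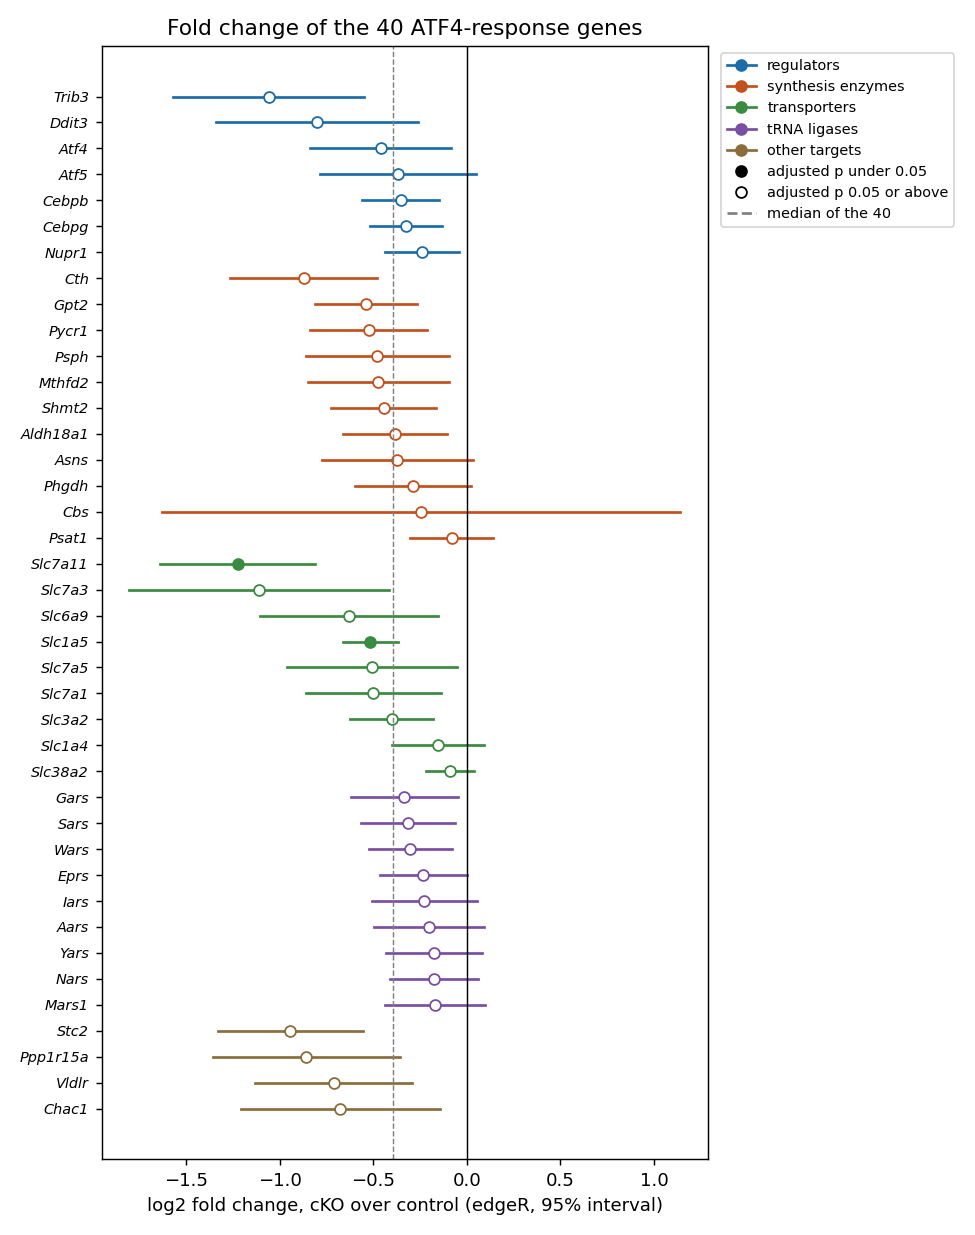
Log2 fold change of each of the 40 genes, cKO over control, as a point with its 95% interval, ordered by size within each role. Every point lies left of 0, the 2 filled points (Slc7a11 and Slc1a5) passed the threshold, and 27 intervals stay wholly below 0.

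The number of calls depended on single libraries. Without cKO replicate 1, 32 of the 40 were called lower (background 2.94%) and none higher (1.95%). Without cKO replicate 2, 6 were called lower (0.715%) and none higher (0.282%). Without control replicate 1, the library with Xist, none was called (background 0.0249% lower and 0.00623% higher), although 23 had an unadjusted p under 0.05 and 39 lay below 0. Without control replicate 2 none was called either (background 0.0812% lower and 0.0375% higher), with 15 at an unadjusted p under 0.05. The lone library of a group is then assumed to vary like the others. Neither fit without a control library kept Slc7a11 or Slc1a5, and both fits without a cKO library kept the pair.

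The cKO libraries were unequal, in the same direction for every gene. cKO replicate 2 was below cKO replicate 1 in all 40 genes, where it was below in 49.9% of all tested genes. Relative to the mean of the controls, the median of the 40 was -0.23 in cKO replicate 1 and -0.59 in cKO replicate 2 on the log2 scale (pseudocount 0.1 CPM). The controls lay at -0.02 and 0.02. In cKO replicate 1, 34 of the 40 were below both controls (background 36.2%), and in cKO replicate 2, 39 were (37.4%), all but Cbs. The SD of the cKO group exceeded that of the controls in 37 of the 40. In the same libraries, the sum of the 7 chondrocyte markers given above was also lowest in cKO replicate 2. Most of that sum is Col2a1, at 14352 and 17760 CPM in controls and at 7792 and 5381 CPM in cKO replicates 1 and 2. All 7 were lower in cKO without overlap, against 24.9% of all tested genes. Between the cKO libraries 6 of the 7 were lower in replicate 2, and Matn1 was not (42.8 CPM in replicate 1 and 44.9 CPM in replicate 2). The 8 adipocyte markers summed to 198 and 194 CPM in controls against 238 and 375 CPM in cKO replicates 1 and 2. Lep was at 0 in all 4, and Adipoq, Plin1, Fabp4 and Cd36 were higher without overlap (background 24.9%). The 6 fibroblast markers summed to 6693 and 6385 CPM in controls against 8096 and 8716 CPM in cKO. Of these, 5 were higher and 1 (Dcn) lower without overlap (background 24.9% in either direction). Skeletal muscle markers, 6 genes, summed to 4.21 and 21.6 CPM in controls against 47.0 and 10.9 CPM in cKO replicates 1 and 2, highest in cKO replicate 1. Macrophage markers stayed between 10.9 and 16.5 CPM. Whether these markers have a part in the fold changes was not tested. In bulk RNA, fewer cells of a type and less RNA per cell cannot be told apart.

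**Figure D2:**
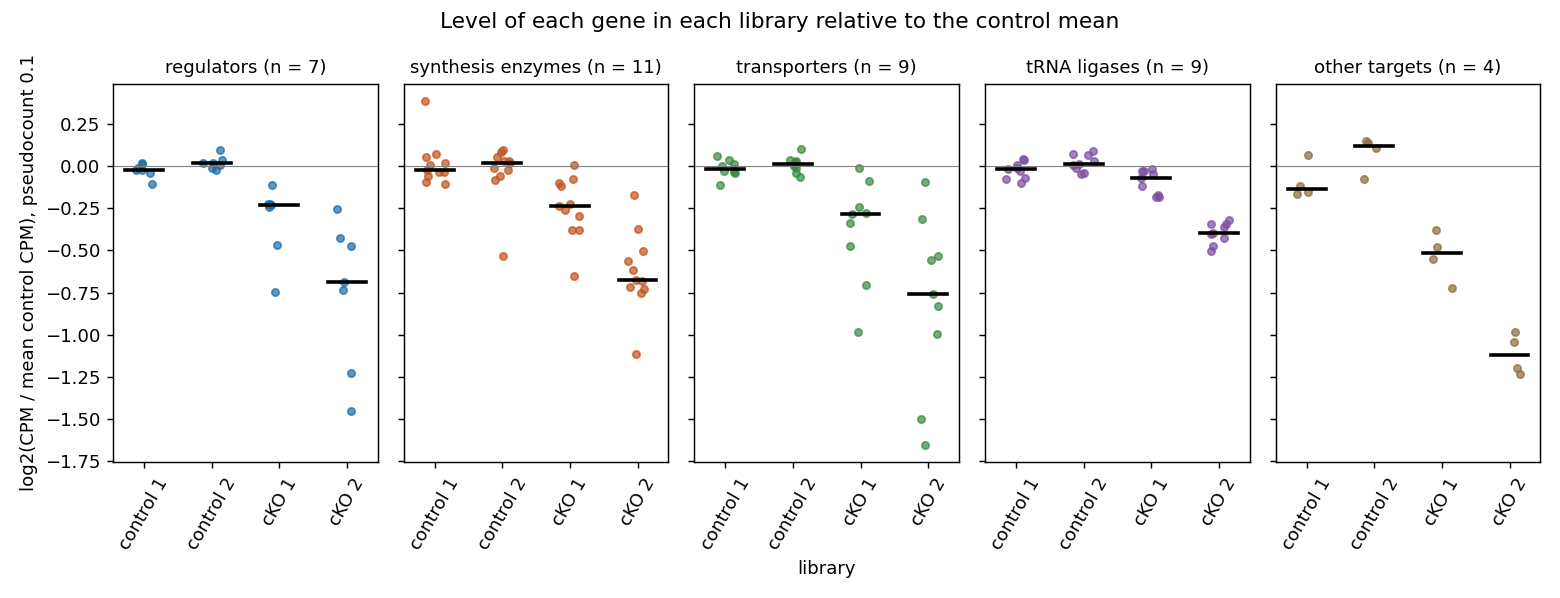
Level of each gene in each library as log2 of its CPM over the mean control CPM, with 1 panel per role, points for genes and black bars for medians. In every panel the bar of cKO 2 lies below that of cKO 1, and for the tRNA ligases cKO 1 stays near the controls, at -0.07.

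Among the 7 regulators none passed by edgeR, although 6 had an unadjusted p under 0.05 and the groups did not overlap in any of them. DESeq2 called 3 and limma-voom 1, all lower. Their median log2 fold change was -0.37. Atf4 itself (chromosome 15, 80255184 to 80257541) was at 399 and 387 CPM in the controls and at 336 and 236 CPM in the cKO libraries. Both cKO values were lower than either control, and the drop was mostly that of cKO replicate 2. The log2 fold change was -0.46 ± 0.16 (SE; edgeR adjusted p = 0.21). Atf5, a related factor that ATF4 is known to raise, had -0.37 ± 0.17 (adjusted p = 0.35).

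Trib3 encodes a pseudokinase that restrains ATF4 in a feedback loop. It was at 119 and 126 CPM in controls and at 73.1 and 44.6 CPM in cKO, 2.08-fold lower (edgeR adjusted p = 0.0771). Ddit3 encodes CHOP, the partner of ATF4 in stress-induced cell death. It was at 103 and 101 CPM in controls and at 73.6 and 43.4 CPM in cKO. Its log2 fold change was -0.80 ± 0.22 (SE; edgeR adjusted p = 0.15). In both genes the controls lay close together and cKO replicate 2 was the lowest library. Exons of Ddit3 and of the methionine tRNA ligase gene Mars1 overlap at their ends on opposite strands, and no source used here gives the strand setting of the counts. Cebpb, a C/EBP factor, was at 123 and 125 CPM in controls and at 105 and 89.1 CPM in cKO. Cebpg, the C/EBP partner of ATF4 at amino acid genes, was at 77.2 and 79.4 CPM in controls and at 66.8 and 58.2 CPM in cKO. These are the smaller and tighter differences of the group, at -0.35 ± 0.08 and -0.32 ± 0.08 (edgeR adjusted p = 0.11 and 0.12). Nupr1, a stress-induced chromatin protein, had the smallest, -0.24 ± 0.08 (adjusted p = 0.21). The median log2 fold change of all 7 regulators was -0.69 without cKO replicate 1 and -0.23 without cKO replicate 2.

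The 11 synthesis enzymes had a median log2 fold change of -0.44, with none past the edgeR threshold. An unadjusted p under 0.05 was found for 7, all lower, DESeq2 called 6 and limma-voom 1. The serine pathway runs from Phgdh through Psat1 to Psph, and serine is then turned to glycine and one-carbon units by Shmt2 and Mthfd2 in mitochondria. Along these steps the log2 fold changes were -0.29 ± 0.13 for Phgdh, -0.08 ± 0.09 for Psat1, -0.48 ± 0.16 for Psph, -0.44 ± 0.12 for Shmt2 and -0.47 ± 0.16 for Mthfd2 (SE). Psat1 was the exception, with its 4 libraries mixed, at 136 ± 13.7 CPM in the control group against 129 ± 11.1 CPM in the cKO group (SD, n = 2). Its 95% interval, -0.30 to 0.14, leaves room for a drop of the size seen in Phgdh. Shmt2 was at 199 and 225 CPM in controls and at 173 and 139 CPM in cKO (edgeR adjusted p = 0.13). The groups did not overlap, but the controls differed from each other by as much as cKO replicate 1 did from the lower control. Shmt2 shares exon bases with Ndufa4l2 on the opposite strand.

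Cth, cystathionine gamma-lyase, makes cysteine from cystathionine and had the lowest ratio among the enzymes. It was at 23.2 and 21.5 CPM in controls and at 14.2 and 10.3 CPM in cKO, 1.83-fold lower. Both cKO libraries were well below both controls, and the edgeR adjusted p was 0.0676. Cbs, the step before Cth, was the lowest gene of the 40, at 0.794 ± 0.391 CPM in the control group against 0.669 ± 0.111 CPM in the cKO group (SD, n = 2), and its 95% interval ran from -1.63 to 1.14. Gpt2, a mitochondrial alanine aminotransferase, was at 70.5 and 73.6 CPM in controls and at 55.5 and 43.8 CPM in cKO (log2 fold change -0.54 ± 0.11, edgeR adjusted p = 0.0865). The proline enzymes Aldh18a1 and Pycr1 had -0.38 ± 0.11 and -0.52 ± 0.13. Pycr1 was at 23.1 and 20.7 CPM in controls and at 16.8 and 13.6 CPM in cKO, without overlap (edgeR adjusted p = 0.12). Asns, which makes asparagine and is a classical readout of the response, had -0.37 ± 0.17 (adjusted p = 0.33), with cKO replicate 1 only slightly below the controls. Over all 11 enzymes the median log2 fold change was -0.68 without cKO replicate 1 and -0.23 without cKO replicate 2.

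The transporters held both genes that passed, and their median log2 fold change was -0.51. Slc7a11 (chromosome 3, 49892526 to 50443614) encodes xCT, which brings in cystine in exchange for glutamate and so feeds glutathione synthesis. Its level was 49.7 and 45.7 CPM in the controls and 24.1 and 16.8 CPM in the cKO libraries. Both cKO libraries lay far below both controls, and Slc7a11 fell 2.34-fold, by 1.22 ± 0.17 on the log2 scale (SE; edgeR adjusted p = 0.0375). Slc1a5 (chromosome 7, 16781340 to 16798274) encodes ASCT2, an importer of glutamine and other neutral amino acids. It was at 91.7 and 93.8 CPM in controls and at 66.8 and 63.0 CPM in cKO. Unlike most of the 40, its cKO libraries lay close together, and it fell 1.43-fold, by 0.51 ± 0.06 (SE; edgeR adjusted p = 0.0289). Without control replicate 1 the adjusted p-values were 0.15 for Slc7a11 and 0.13 for Slc1a5. Without control replicate 2 they were 0.17 and 0.18. The fold changes stayed between -1.51 and -0.98 for Slc7a11 and between -0.56 and -0.47 for Slc1a5 in the 4 fits that leave out a library.

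Slc3a2 encodes CD98, the heavy chain that carries both Slc7a11 and the leucine transporter Slc7a5 to the cell surface. It was at 228 and 216 CPM in controls and at 183 and 153 CPM in cKO, a log2 fold change of -0.40 ± 0.09 (SE; edgeR adjusted p = 0.10). Slc7a5 had -0.51 ± 0.19 (adjusted p = 0.24), with values that spread more within the cKO group. The arginine and lysine transporter Slc7a3 was at 22.4 and 22.02 CPM in controls and at 13.6 and 6.98 CPM in cKO. It was 2.16-fold lower by the fit, but the cKO libraries themselves differed nearly as much, and the edgeR adjusted p was 0.13. Slc7a1, which carries the same amino acids, was at 187 and 197 CPM in controls and at 158 and 113 CPM in cKO (log2 fold change -0.50 ± 0.15, edgeR adjusted p = 0.17). The glycine transporter Slc6a9 was at 112 and 118 CPM in controls and at 91.2 and 57.6 CPM in cKO (-0.63 ± 0.20, adjusted p = 0.18). Slc38a2, which encodes SNAT2 and had the highest CPM of the 40, had a small difference without overlap. It was at 643 ± 0.425 CPM in the control group against 604 ± 1.44 CPM in the cKO group (SD, n = 2 libraries), with a 95% interval of -0.22 to 0.04 for the log2 fold change. Slc1a4, a serine and alanine transporter, had -0.15 ± 0.10 (adjusted p = 0.50) with overlapping groups. Over all 9 transporters the median log2 fold change was -0.76 without cKO replicate 1 and -0.28 without cKO replicate 2.

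**Figure D3:**
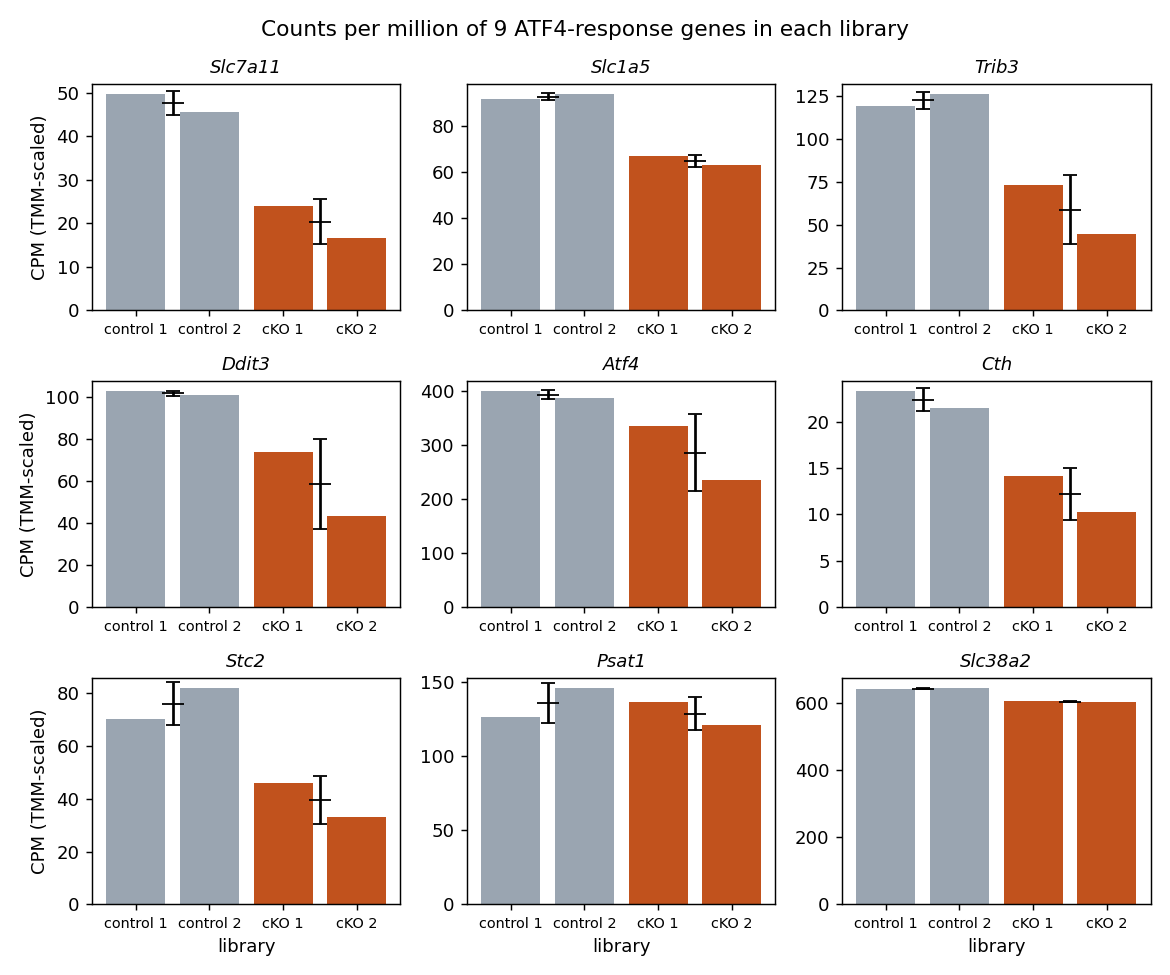
CPM (TMM-scaled) of 9 genes in each of the 4 libraries, as bars from 0, with the mean and SD of each group (n = 2) as black marks. Slc7a11 and Slc1a5 separate the groups, Atf4, Ddit3 and Trib3 are lowest in cKO 2, and Psat1 and Slc38a2 differ little.

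The tRNA ligases, which attach amino acids to tRNAs for protein synthesis, had the smallest and most uniform differences of the 5 roles. Their log2 fold changes ran from -0.33 for Gars to -0.17 for Mars1, with a median of -0.23. None passed by edgeR or limma-voom, DESeq2 called 1 lower (Sars), and 3 had an unadjusted edgeR p under 0.05. The tryptophan ligase Wars was at 70.7 and 66.6 CPM in controls and at 60.4 and 51.1 CPM in cKO (-0.30 ± 0.09 SE, edgeR adjusted p = 0.17). The serine ligase Sars was at 296 and 299.7 CPM in controls and at 265 and 214 CPM in cKO (-0.31 ± 0.10, adjusted p = 0.20). The glycine ligase Gars was at 215 and 246 CPM in controls and at 203 and 163 CPM in cKO (adjusted p = 0.23). Eprs, the ligase for glutamate and proline, was at 411 and 452 CPM in controls and at 399 and 337 CPM in cKO (-0.23 ± 0.10, adjusted p = 0.29). In these genes cKO replicate 1 lay under the lower control and cKO replicate 2 farther below. The groups overlapped in 3 ligases, Aars, Iars and Mars1, and did not in the other 6. In cKO replicate 1, 6 of the 9 were within 10 percent of the control mean. The median log2 fold change of all 9 ligases was -0.40 without cKO replicate 1 and -0.071 without cKO replicate 2.

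The 4 other targets had the largest median of the roles, -0.78, with no overlap between the groups in any of them. All 4 had an unadjusted edgeR p under 0.05 and none passed the threshold, while DESeq2 called 2 and limma-voom 1. Stc2, a secreted glycoprotein that dampens calcium entry and stress, was at 70.3 and 81.9 CPM in controls and at 46.1 and 33.1 CPM in cKO. It was 1.92-fold lower, and the edgeR adjusted p of 0.0572 was the nearest to the threshold among those of the 40 that missed it. Ppp1r15a encodes GADD34, the phosphatase subunit that removes the phosphate from eIF2 and so ends the response. It was at 76.9 and 69.6 CPM in controls and at 49.9 and 31.0 CPM in cKO, 1.81-fold lower (adjusted p = 0.11). Part of its exons overlap Tulp2 on the opposite strand. Vldlr, a lipoprotein receptor, was at 232 and 284 CPM in controls and at 185 and 131 CPM in cKO (log2 fold change -0.71 ± 0.17, edgeR adjusted p = 0.11). Chac1, which breaks down glutathione, was at 45.3 and 56.3 CPM in controls and at 39.0 and 24.6 CPM in cKO (-0.68 ± 0.22, adjusted p = 0.19). In Vldlr and Chac1 the controls also differed from each other. The median log2 fold change of all 4 was -1.12 without cKO replicate 1 and -0.52 without cKO replicate 2.

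Scaled by exon length, Nupr1 and Atf4 were the highest of the 40 in controls, at 421 ± 42.6 and 228 ± 4.95 CPM per kilobase (SD, n = 2), followed by Slc38a2 at 138 ± 0.0912. The lowest were Pycr1 at 5.82, Slc7a11 at 4.84 and Cbs at 0.127 CPM per kilobase. In this order, the control libraries of 21 of the 39 neighbouring pairs did not overlap, and the rest, such as Gars, Atf5 and Shmt2, could not be ranked. By group mean, Ddit3 went from 4th place in controls (114 ± 1.27 CPM per kilobase) to 11th in cKO (65.8 ± 24.0, SD, n = 2). Whether neighbours overlap was checked in controls alone, so its place in cKO is uncertain. The first 3 places were the same in both groups.

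**Figure D4:**
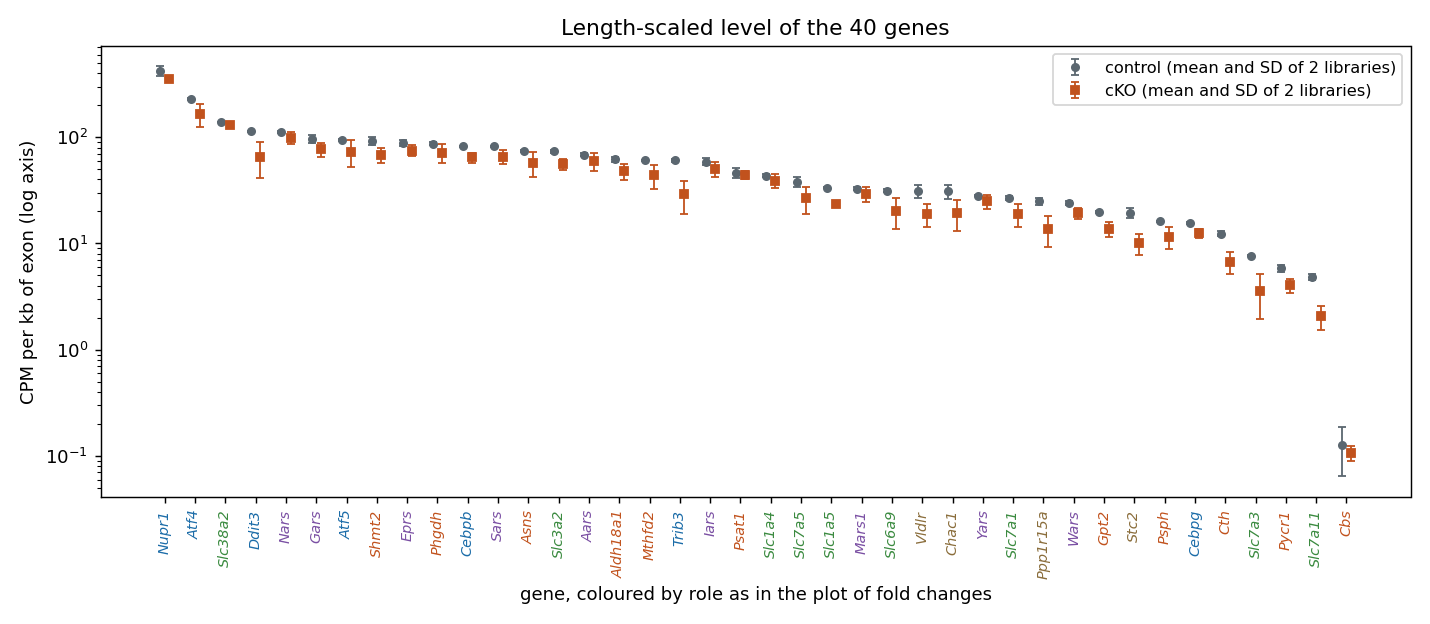
Level of each gene in CPM per kilobase of exon on a log axis, mean and SD of 2 libraries, controls as circles and cKO as squares, ordered by the control level. The cKO mean lies below the control mean for each gene, with wider error bars in cKO for most.

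Neighbouring parts of amino acid metabolism were compared through lists of genes outside the 40. Of 23 further known ATF4 targets, 2 fell and none rose (background 0.908% lower and 0.393% higher), with a median log2 fold change of -0.39. Ero1l, an oxidase of the endoplasmic reticulum that hypoxia also raises, was at 764 and 811 CPM in controls and at 432 and 329 CPM in cKO. It fell by 1.05 ± 0.13 on the log2 scale (SE; edgeR adjusted p = 0.030). Adm2, which encodes the peptide hormone intermedin, was at 47.8 and 56.1 CPM in controls and at 28.01 and 20.1 CPM in cKO, and fell by 1.11 ± 0.17 (adjusted p = 0.0434). The stress factor Atf3 was at -1.21 ± 0.20, and the mitochondrial folate enzymes Mthfd1l and Aldh1l2 were at -0.61 ± 0.10 and -0.74 ± 0.14, with edgeR adjusted p-values of 0.0521, 0.0544 and 0.0676. DESeq2 called 14 of the 23 lower (background 4.14%) and limma-voom 5 (1.46%). With either control library left out none was called, and 15 were without cKO replicate 1 and 4 without cKO replicate 2.

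Transporters and enzymes that are not on the ATF4 list had medians near 0. Of 22 other amino acid transporters tested, 1 fell and none rose (background 0.908% lower and 0.393% higher). This was Slc38a3, a glutamine transporter, which went from 25.5 ± 1.07 CPM in controls to 15.04 ± 1.19 CPM in cKO (SD over 2 libraries, edgeR adjusted p = 0.0361). The list median was 0.08 and 9 of the 22 lay below 0. No call on this list remained when either control library was left out, and without cKO replicate 1, 3 were lower and 3 higher. With all 4 libraries, DESeq2 called 3 of the 22 lower and 2 higher (background 4.14% and 3.34%). By limma-voom 3 were lower and none higher (1.46% and 0.683%). Slc38a1 had a log2 fold change of -0.45, Slc7a2 of -0.67 and the taurine transporter Slc6a6 of 0.35 (edgeR adjusted p = 0.0529, 0.0621 and 0.12). None of 31 other amino acid and one-carbon enzymes passed by edgeR. Of these 2 had an unadjusted p under 0.05 downward and 3 upward, DESeq2 called 1 lower and 2 higher, and limma-voom 1 lower. Their median was -0.03, and 0.04 when libraries were scaled by size alone. Glul, glutamine synthetase, had 0.65 ± 0.16 and Got1, an aspartate aminotransferase, -0.45 ± 0.07 (SE, edgeR adjusted p = 0.12 and 0.0549). Gldc, with group means of 1.28 CPM in controls and 3.85 CPM in cKO, had 1.58 ± 0.39 (SE, edgeR adjusted p = 0.12).

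Of the 11 other cytosolic tRNA ligases none passed by edgeR, DESeq2 or limma-voom, 2 had an unadjusted edgeR p under 0.05 (Dars and Lars), and the median was -0.14. Among these 11, Cars, Lars and Tars are also counted with the further ATF4 targets. When cKO replicate 1 was left out, 2 of the 11 were called lower. Of 17 mitochondrial tRNA ligases none passed by any of the 3 tools, 1 had an unadjusted edgeR p under 0.05 (Sars2), and the median was -0.10. The 9 cytosolic ligases on the ATF4 list, at -0.23, were lower than both, but the difference between lists was not tested. It was seen in cKO replicate 2, where the median log2 ratios to the control mean were -0.40 for these 9, -0.12 for the other 11 cytosolic ligases and -0.13 for the mitochondrial ligases. In cKO replicate 1 the medians were -0.07, -0.07 and -0.05.

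The machinery upstream of ATF4 had small differences. A list of 15 genes held eIF2 kinases, eIF2, its exchange factor eIF2B, and the related genes Gcn1, Impact and Ppp1r15b. None of the 15 passed by edgeR, DESeq2 or limma-voom, and none had an unadjusted edgeR p under 0.05. The median was -0.06, with 13 of the 15 below 0, or 8 with library sizes alone. Eif2ak4 encodes GCN2, the kinase that senses uncharged tRNA, and Eif2ak3 encodes PERK, the kinase of the endoplasmic reticulum. This pair was picked for its role after the values were seen. The 95% intervals of their log2 fold changes were -0.33 to 0.19 and -0.28 to 0.08. The lowest ratio of the list was that of the X-linked Eif2s3x, with 253 CPM in control replicate 1, the library with Xist, and 146 to 152 CPM in the other 3 libraries. A list of 18 endoplasmic reticulum genes, which other arms of the stress response largely control, had a median of -0.16. It holds mostly chaperones and folding factors, with the regulators Xbp1 and Atf6 and the degradation genes Edem1 and Sel1l. Of the 18, 17 lay below 0 (14 when libraries were scaled by size alone) and 2 were called lower, Hspa5 and Dnajb9 (background 0.908%). In edgeR 9 had an unadjusted p under 0.05, all lower, while DESeq2 called 6 lower and limma-voom 5, and neither edgeR call was left without control replicate 1 or without control replicate 2. For these 18 the median ratio to the control mean was -0.15 in cKO replicate 1 and -0.18 in cKO replicate 2, where the 40 ATF4 genes had -0.23 and -0.59. Whether that difference exceeds the spread between libraries was not tested.

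**Figure D5:**
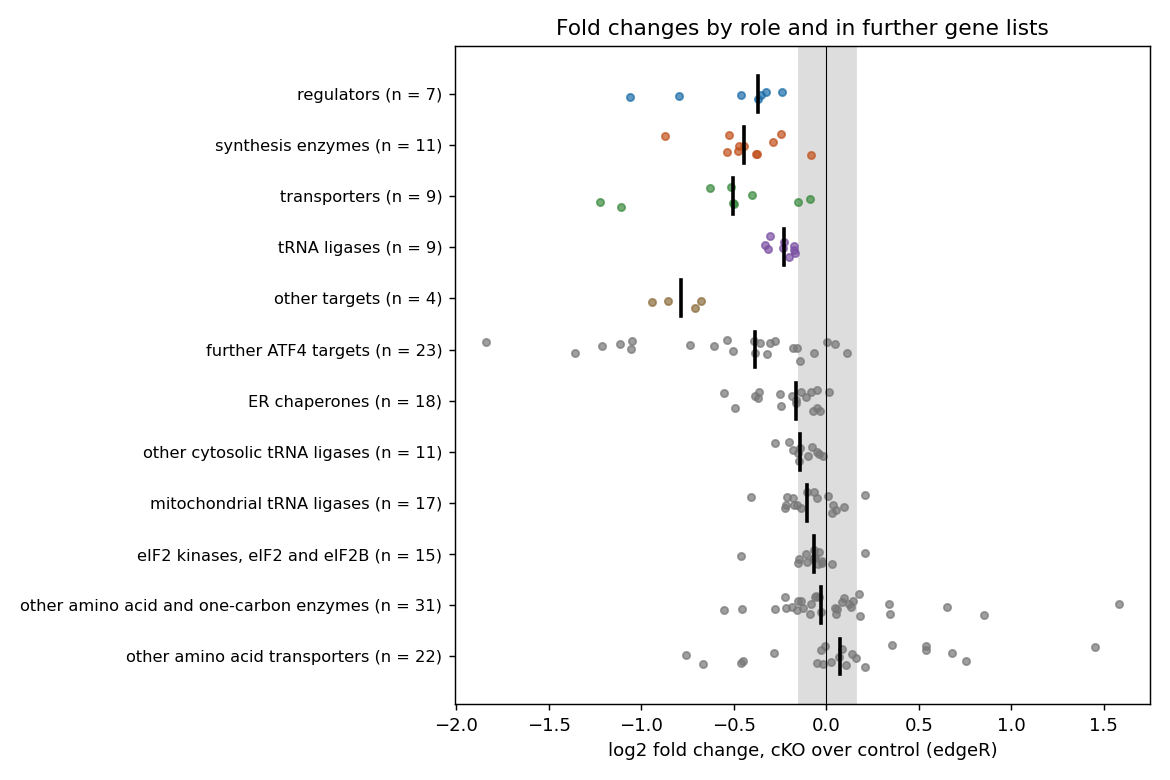
Log2 fold change of each gene (points) and the median (black bars) for the 5 roles and for 7 further lists, over the range that holds the middle 50 percent of all tested genes (grey band). The roles lie left of 0 and the further ATF4 targets reach farthest left, while the other transporters and enzymes lie on both sides of 0.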

How the data were processed

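The values used are unscaled read counts per gene that the authors deposited in 1 table of the 4 libraries. Per the submitters' processing notes, HISAT2 2.2.1 and StringTie 2.1.7, Trim Galore 0.6.7, FastQC 0.11.9 and build mm10 are listed, with no role or order. The sources used here do not give the counting step, its strand setting, annotation or handling of shared reads, so reads of overlapping genes (10 of the 40 share exon bases with another gene) or of the pseudogene of Phgdh may be misassigned.

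Genes were kept by filterByExpr (minimum count 10) in edgeR 4.0.16 (R 4.3.3), scaled by TMM, fitted by glmQLFit and tested by glmQLFTest for genotype, with Benjamini-Hochberg adjustment over 15522 genes at 0.05. Each SE is the size of the log2 fold change divided by the root of its F value. DESeq2 1.42.0, limma-voom (limma 3.58.1), other scaling, no filter, a replicate block, counts divided by 4 and leaving out each library were alternatives. Scripts were tested on simulated counts that varied less between replicates than these libraries do. That test does not give the share of true changes found here. Replicates differed by more than sampling noise (mean chi-square per gene 40.9 in controls and 44.9 in cKO).

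Positions and exon lengths come from GENCODE M21 (mm10). The genes and lists were chosen with earlier results of these data known. Values in every library are given for genes past the threshold and up to 4 more per role by p-value, and for Atf4 because it names the response. Of other lists, genes past the threshold and up to 3 more by p-value are named. 1 promoter stretch is not reported here.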

Additional observations from a re-analysis of the deposited data

How the results depend on the processing

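Of the 40 genes, edgeR called 2 lower with all libraries. DESeq2 gave 17, limma-voom 5, counts divided by 4 (tried because 29.98% to 32.0% of counts from 1 to 20 were multiples of 4) 5, and leaving out 1 library 0 to 32. No alternative called any gene higher. The median of the 40 was -0.39 and ran from -0.59 to -0.23 when 1 library was left out. The role medians in those fits ran from -0.69 to -0.23 for regulators, -0.68 to -0.23 for synthesis enzymes, -0.76 to -0.28 for transporters, -0.40 to -0.071 for tRNA ligases and -1.12 to -0.52 for other targets. Genes that changed sign were Cbs, at 0.37 without control replicate 1, and Psat1, at 0.027 without control replicate 2 and 0.0066 without cKO replicate 2 but -0.18 without control replicate 1. The cause of these shifts was not tested. Library sizes alone, RLE size factors and no low-count filter each kept the same 2 calls. Over all genes, however, library sizes alone gave 123 lower and 116 higher against 141 and 61. Counts divided by 4 gave 243 lower and 128 higher over the 13810 genes then tested.

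Replicate numbers were not taken to pair libraries, since the labels do not say that a number marks a shared animal, litter or day. The deviations of same-numbered libraries had a correlation of -0.12 across genes. With 2 libraries per group, that value cannot decide whether the libraries are paired. With the replicate block 0 of the 40 were called, and over all genes 20 were lower and 3 higher. In that fit Slc7a11 was at -1.25 (edgeR adjusted p = 0.0513) and Slc1a5 at -0.51 (0.0689). The crossed pairing, added after seeing the data, gave 14 of the 40 lower, and over all 15522 genes 341 lower and 223 higher.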
